A study of Mus musculus with 30 samples.

Results

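The genes described here are 10 transcripts tied to low oxygen and to glycolysis: Adm, Vegfa, Ankrd37, Car9, Bnip3, Slc2a1, Aldoa, Pgk1, Eno1 and Ldha. They were taken by symbol from a deposited expression table of 18975 genes, and all 10 were found there. They passed the filter on low values as well, as 10 of the 15002 genes that did. The table holds RNA sequencing values of 30 subcutaneous B16F10 tumors, a transplanted mouse melanoma line, grown in female C57BL/6 mice. The hosts were wild type (WT, labelled ARE-del +/+) or heterozygous for ARE-del (HET, labelled ARE-del +/-), an allele that lacks an AU-rich element of the mRNA of Ifng, the gene of interferon-gamma. The injected tumor cells do not carry the host's allele, so in a HET tumor only the host's own cells in it do. Treatment began 7 days after injection and was given 2 times a week: rat IgG2A as control, anti-PD1 at 0.25 mg (it blocks a checkpoint receptor of T cells), agonist anti-CD40 at 0.25 mg (it activates antigen-presenting cells), or both antibodies, called the combination here. WT mice gave 5 IgG, 4 anti-PD1, 3 anti-CD40 and 3 combination tumors. HET mice gave 4 IgG, 3 anti-PD1, 4 anti-CD40 and 4 combination tumors. The labels do not say that replicates are separate animals, so p-values rest on how far these samples spread, which may be technical.

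Cells short of oxygen stabilize the alpha subunits of the hypoxia-inducible factors (HIF), which pair with ARNT and bind DNA near genes that bring in oxygen, handle acid or run glycolysis. When oxygen is present, prolyl hydroxylases such as EGLN1 mark the alpha subunits for destruction through VHL. Solid tumors often hold regions far from a vessel where this program is on, and many tumor cells run glycolysis at a high rate even with oxygen. Within the 10 genes, Adm encodes adrenomedullin, a peptide that widens vessels, and Vegfa the main growth factor for blood vessels. Car9 encodes a carbonic anhydrase at the cell surface that helps to set the pH outside the cell, and Bnip3 a mitochondrial protein of mitophagy and cell death. Ankrd37 encodes an ankyrin repeat protein and is a known HIF target. Slc2a1 encodes the glucose transporter GLUT1. Aldoa (aldolase A), Pgk1 (phosphoglycerate kinase 1) and Eno1 (enolase 1) encode glycolytic enzymes, and Ldha encodes the subunit of lactate dehydrogenase that favours the step from pyruvate to lactate.

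The HIF proteins bind a short core that reads ACGTG or GCGTG on one strand and CACGT or CACGC on the other. RefSeq transcript starts on GRCm38.p6 were found for 10 of 10 genes, 16 starts in all. In the 250 bases before a start, 14 of these 16 stretches held at least 1 such core on either strand and 9 held at least 2. Over all 32851 RefSeq stretches of the same length, 38.6% held at least 1 and 16.7% at least 2. Every core holds the letters CG, and these stretches were not matched to the members for how often CG occurs. Overlapping cores were counted separately, so CACGTG counts as 2. Starts of a gene can lie close together, and overlapping stretches of Eno1, and of Aldoa, hold the same cores again. The sequences below are the parts that hold the cores before the start of 6 members with different roles (a vessel peptide, pH, mitophagy, glucose entry and 2 enzymes), 5′ to 3′ on the gene's strand, with each core in capitals. They are letters in a reference sequence, with no binding measured here.
Adm, chr7:110627557-110627617, plus strand: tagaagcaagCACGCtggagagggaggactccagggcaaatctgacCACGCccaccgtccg
Car9, chr4:43506998-43507022, plus strand: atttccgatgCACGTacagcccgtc
Bnip3, chr7:138909527-138909633, minus strand: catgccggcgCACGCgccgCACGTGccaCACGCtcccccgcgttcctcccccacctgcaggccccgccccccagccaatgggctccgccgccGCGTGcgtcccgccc
Slc2a1, chr4:119108674-119108723, plus strand: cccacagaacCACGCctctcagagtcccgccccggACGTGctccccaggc
Pgk1, chrX:106186940-106186983, plus strand: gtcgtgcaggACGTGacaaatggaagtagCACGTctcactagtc
Ldha, chr7:46845649-46845784, plus strand: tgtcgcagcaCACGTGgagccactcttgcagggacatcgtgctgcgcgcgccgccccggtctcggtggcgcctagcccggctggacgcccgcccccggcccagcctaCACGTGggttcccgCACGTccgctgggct
Bnip3 and Ldha held 5 cores each in these parts, Adm, Slc2a1 and Pgk1 held 2 each, and Car9 held 1, just before its RefSeq start. Of the 2 stretches of Vegfa, the one before its first start held 0, which says only that these letters are not in that window. The other held 2 and lies inside the gene.

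All 10 genes were well covered, and the 4 enzymes stood far above the rest. Per kilobase of exon (GENCODE vM21, mm10), the median of counts scaled to library size (CPM) over the 30 libraries was 1248 for Aldoa, 1235 for Pgk1, 808 for Ldha and 639 for Eno1. On the same scale Bnip3 stood at 147, Car9 at 72.6, Slc2a1 at 69.8, Vegfa at 58.8, Adm at 27.0 and Ankrd37 at 6.63. The fewest reads of a member in a library were 143, for Ankrd37. The other values below are log2 CPM as deposited. Between the lowest and the highest of the 30 tumors, Car9 differed 7.21-fold, Adm 6.59-fold and Vegfa 5.42-fold. The enzymes spanned less, from 1.87-fold for Pgk1 to 3.34-fold for Aldoa.

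Libraries differed in depth, from 17.6 M to 36.0 M reads, and whole reads could be recovered from the values of every library. HET IgG replicate 2 stood apart, with 6.53% of reads from mitochondrially encoded genes and 1554 genes of the table without a read. It was the highest library for Adm, Aldoa, Pgk1 and Eno1. Its values were scaled to a library size of 16767817, against 21849047 reads recovered, the widest such gap of the 30 libraries. That scaling raises every log2 CPM value of this library. WT IgG replicate 1 was the lowest library for Vegfa, Car9 and Bnip3. Melanocyte markers, which check the B16F10 label, averaged 9.29 to 10.56 (mean log2 CPM of 11 genes), with none at 0 in any group. The labels also carry an L number that they do not explain: all WT combination tumors are in L6, all HET combination tumors in L8, and no L number holds WT and HET tumors under the same treatment, so genotype and L number cannot be told apart. In these bulk samples, fewer cells with an active program and less RNA per cell cannot be told apart either.

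Adm (ENSMUSG00000030790.10, mm10, chromosome 7, 110627661 to 110629820, plus strand) was the member whose groups differed most against their spread, and its 2 lowest group means were those of the HET groups that received anti-CD40. HET combination tumors stood at 5.16, 4.76, 4.81 and 4.58. HET IgG tumors stood at 5.54, 6.67, 6.08 and 5.25. Every HET combination tumor was below every HET IgG tumor. HET anti-CD40 tumors stood at 3.95, 5.39, 5.43 and 5.47, and HET anti-PD1 tumors at 5.92, 6.06 and 6.04. The HET anti-CD40 group held the lowest library of all 30, and the HET anti-PD1 tumors lay close together. In WT, IgG tumors stood at 5.13, 5.67, 4.82, 5.68 and 5.88, and anti-PD1 tumors at 5.73, 5.28, 5.93 and 5.85. WT anti-CD40 tumors stood at 5.44, 6.12 and 5.37, and WT combination tumors at 5.23, 6.04 and 5.42. The 4 WT groups overlapped throughout. Ranked by mean, the order was HET anti-PD1 (6.01 ± 0.08, SD, n = 3), HET IgG (5.88 ± 0.63), WT anti-PD1 (5.70 ± 0.29), WT anti-CD40 (5.64 ± 0.41), WT combination (5.56 ± 0.42), WT IgG (5.44 ± 0.44), HET anti-CD40 (5.06 ± 0.74) and HET combination (4.83 ± 0.24), and all neighbours in it overlapped.

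Vegfa (ENSMUSG00000023951.12, chromosome 17, 46016993 to 46032369, minus strand) was also lowest in HET combination tumors. They stood at 7.19, 7.78, 6.82 and 7.41. WT combination tumors stood at 7.98, 8.55 and 8.37, all above the 4 HET combination tumors. HET IgG tumors stood at 7.84, 7.93, 8.58 and 7.49, which reached into the range of the HET combination. HET anti-PD1 tumors stood at 8.49, 8.26 and 8.62, and HET anti-CD40 tumors at 7.33, 8.28, 7.59 and 7.29. WT IgG tumors spread widest, at 6.78, 8.20, 8.94, 8.52 and 8.74. WT anti-PD1 tumors stood at 7.85, 7.98, 9.22 and 8.70, and WT anti-CD40 tumors at 8.37, 7.28 and 7.42. The highest Vegfa value of all was WT anti-PD1 replicate 3 and the lowest WT IgG replicate 1, so the WT groups alone covered the range of the 30 tumors. By mean, HET anti-PD1 (8.46 ± 0.18, SD, n = 3), WT anti-PD1 (8.44 ± 0.64, n = 4), the WT combination (8.30 ± 0.30, n = 3), WT IgG (8.24 ± 0.86, n = 5) and HET IgG (7.96 ± 0.45, n = 4) came before WT anti-CD40 (7.69 ± 0.59, n = 3), HET anti-CD40 (7.62 ± 0.46, n = 4) and the HET combination (7.30 ± 0.40, n = 4), with overlap between all neighbours.

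Car9 (ENSMUSG00000028463.10, chromosome 4, 43506966 to 43513729, plus strand) varied most between tumors of the same group. WT IgG tumors stood at 5.77, 7.32, 8.54, 7.80 and 8.54, and WT combination tumors at 6.78, 8.58 and 8.62. In both groups 1 library lay far below the others. WT anti-PD1 tumors stood at 7.36, 7.51, 8.45 and 8.01, and WT anti-CD40 tumors at 7.69, 7.07 and 7.36. HET IgG tumors stood at 6.65, 7.38, 7.33 and 7.33, and HET anti-PD1 tumors at 7.68, 7.65 and 7.57. These 3 lay above all 4 HET IgG tumors. HET anti-CD40 tumors stood at 6.25, 7.81, 7.03 and 7.75, and HET combination tumors at 7.40, 6.96, 6.83 and 7.26. No HET tumor reached 8, while 6 WT tumors did, a cut chosen after the values were seen. Of the variance of Car9, 20.2% lay between the 8 groups, where unrelated values would give 24.1%.

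Bnip3 (ENSMUSG00000078566.4, chromosome 7, 138890836 to 138909519, minus strand) and Slc2a1 (ENSMUSG00000028645.6, chromosome 4, 119108711 to 119137983, plus strand) ranked the tumors alike. Bnip3 stood at 7.25, 8.28, 9.13, 8.27 and 9.06 in WT IgG tumors, and Slc2a1 at 7.02, 7.70, 8.42, 8.07 and 8.60. Replicates 3 and 5 were the highest and replicate 1 the lowest for both. In HET combination tumors Bnip3 stood at 8.16, 8.43, 7.49 and 7.47, and Slc2a1 at 7.54, 7.74, 7.07 and 6.87. Both genes had 2 higher and 2 lower tumors there, and both had their lowest group mean in that group, 7.89 ± 0.48 for Bnip3 and 7.30 ± 0.40 for Slc2a1 (SD, n = 4). Their highest group means were in HET anti-PD1, 8.65 ± 0.12 and 8.03 ± 0.12 (n = 3). Ankrd37 (ENSMUSG00000050914.11, chromosome 8, 45996902 to 46005707, minus strand) had group means from 2.89 ± 0.50 in the HET combination (n = 4) to 3.67 ± 0.61 in WT IgG (n = 5). Its exons share 22.7% of their length with Lrp2bp on the other strand, and 22.3% of the Bnip3 exons are shared with the antisense gene Gm45507. Whether reads were counted by strand is not given in the sources used here, so such reads cannot be told apart.

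The enzymes differed little between groups. Aldoa (ENSMUSG00000030695.9, chromosome 7, 126795234 to 126800751, minus strand) had group means from 11.65 ± 0.17 in the HET combination (SD, n = 4) to 11.99 ± 0.81 in HET IgG (n = 4). That highest mean rests on 1 tumor, since the HET IgG libraries stood at 11.49, 13.18, 11.82 and 11.46. Eno1 (ENSMUSG00000063524.9, chromosome 4, 150236721 to 150248879, plus strand) ran from 11.62 ± 0.31 in the HET combination to 11.91 ± 0.17 in WT anti-CD40. In HET IgG it stood at 11.44, 12.72, 11.69 and 11.41, with the same library on top. Pgk1 (ENSMUSG00000062070.8, chromosome X, 106187100 to 106203699, plus strand) and Ldha (ENSMUSG00000063229.10, chromosome 7, 46841475 to 46855627, plus strand) were lowest in WT anti-PD1 and highest in WT anti-CD40. Pgk1 had means of 11.24 ± 0.13 (n = 4) and 11.56 ± 0.11 (n = 3) there. Ldha had means of 11.20 ± 0.16 (n = 4) and 11.73 ± 0.37 (n = 3), and its highest tumor was WT anti-CD40 replicate 2 at 12.16. Mouse glycolytic enzyme genes have near-identical processed pseudogenes, and how reads shared with them were assigned is not given in the sources used here, so these 4 levels are uncertain to that extent.

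**Figure D1:**
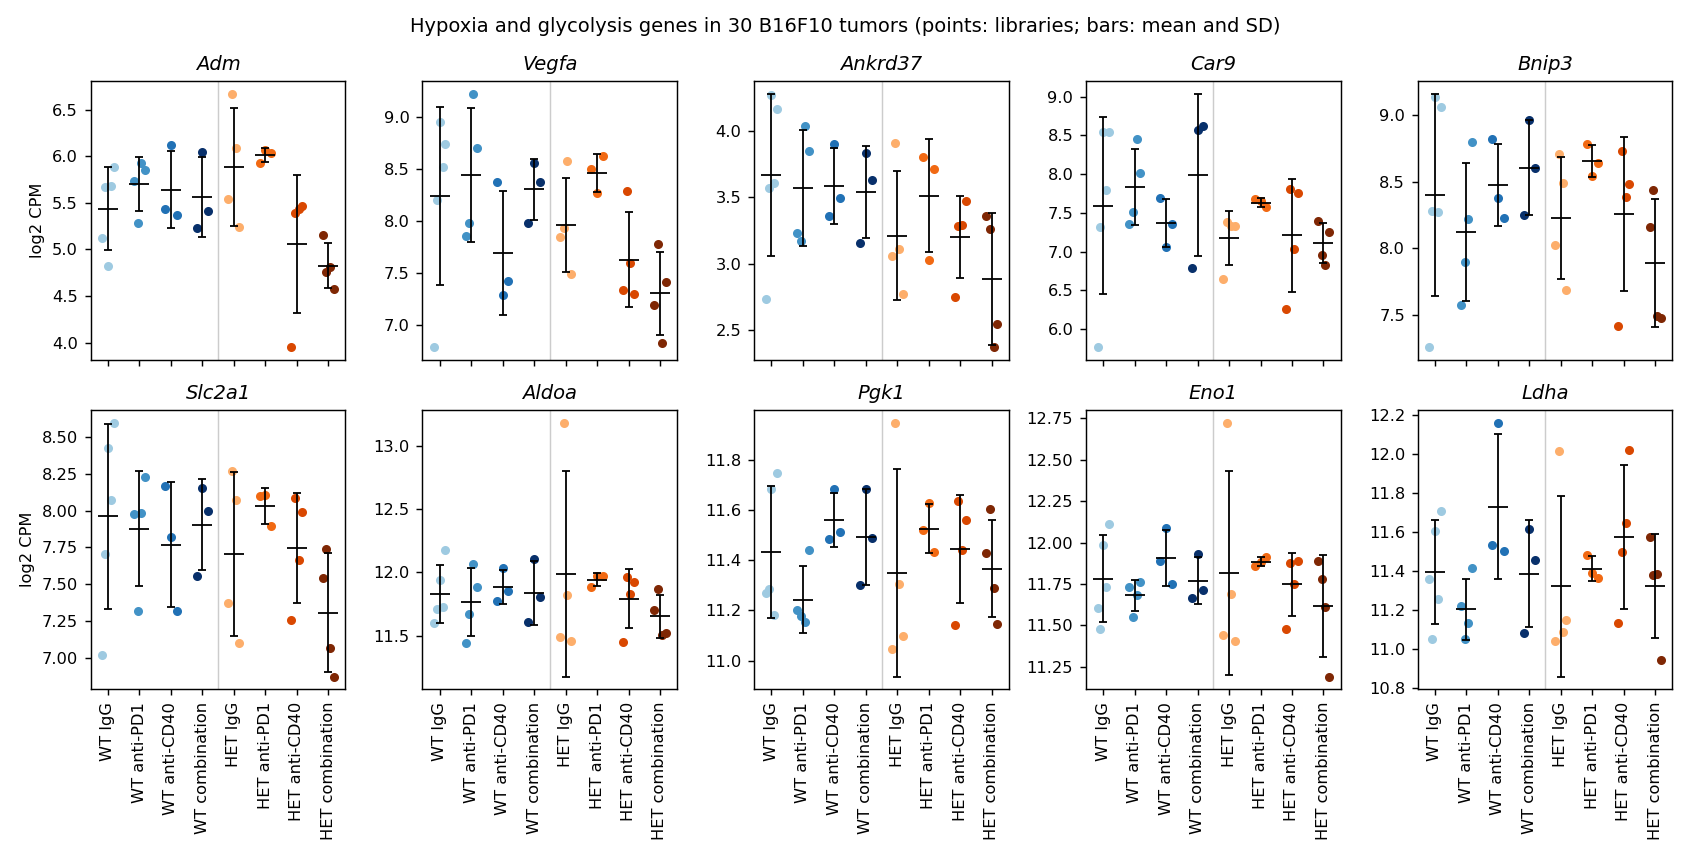
Levels of the 10 genes in each tumor (log2 CPM, vertical axis, scaled per gene) by host genotype and treatment (horizontal axis). Points are libraries and bars the group mean and SD; the 4 HET combination tumors sit at 4.58 to 5.16 for Adm, below all 4 HET IgG tumors.

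Across the 8 groups, 2 of the 10 genes had an unadjusted p under 0.05 and 0 passed adjustment. The share of a gene's variance that lies between groups was 46.9% for Adm and 40.9% for Vegfa. It ran from 9.53% for Aldoa to 30.9% for Ankrd37 in the other 8. Over all 15002 genes tested the median was 25.2%, and values unrelated to the groups would give 24.1%. The limma F test over the 8 groups gave an adjusted p = 0.49 for Adm and an adjusted p = 0.62 for Vegfa. It called 4 of 15002 genes (0.0267%), none of them a member, and gave an unadjusted p under 0.05 for 1153 genes. HET combination tumors had the lowest mean for 8 of 10 members, all but Pgk1 and Ldha, which were lowest in WT anti-PD1. HET anti-PD1 tumors had the highest mean for 4 members (Adm, Vegfa, Bnip3 and Slc2a1). The same counts over all genes were not made. Members varied together from tumor to tumor, so their ranks are not independent of each other.

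HET anti-PD1 tumors resembled each other more than other groups did in the mean of these genes, though not in Ankrd37. The mean of the 10 genes stood at 8.95, 8.85 and 8.91 in them, an SD of 0.05, against SDs of 0.16 to 0.48 in the other 7 groups. The median SD of a member was 0.09 there, where the median over all genes tested was 0.20. Ankrd37 had an SD of 0.42 in this group, wider than its 0.28 in WT anti-CD40. Members also spread less than all genes in WT anti-CD40 (0.31 against 0.41) and, by little, in the HET combination (0.287 against 0.293). In the other groups the order was opposite, as in WT IgG, with a median SD of 0.53 for the members and 0.31 for all genes. All 3 HET anti-PD1 libraries are in L7, and their number limits what an SD can show.

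None of the 13 comparisons called a member. Limma called 0 of 15002 genes (0%) at an adjusted p under 0.05 in each of them, and between 62 and 2230 genes had an unadjusted p under 0.05. Fitted to recovered reads with voom, the same comparisons also called 0 genes, with 54 to 2172 at an unadjusted p under 0.05. The members are therefore described by their direction, their median and their libraries, beside the same values over all genes tested. Comparisons with the same IgG group share its libraries and are not independent of each other.

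**Figure D2:**
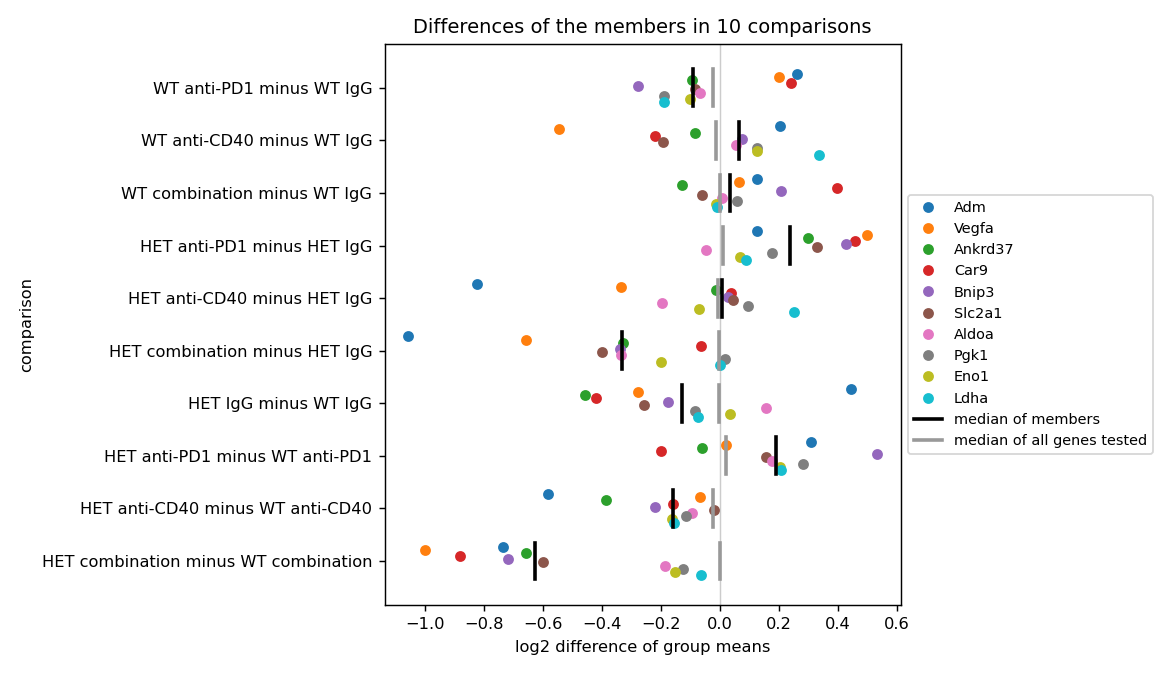
Log2 differences of group means (horizontal axis) for the 10 genes (coloured points) in 10 comparisons (vertical axis), with the median of the members in black and that of all genes tested in grey. In the HET combination against the WT combination all 10 genes lie below 0, the 6 non-enzymes between -1.0 and -0.60 and the 4 enzymes between -0.19 and -0.06.

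In WT hosts, the treatments moved the 10 genes little and in mixed directions. After anti-PD1, 3 members were higher and 7 lower than in WT IgG, with a median log2 difference of -0.09 (all genes -0.02). The farthest apart were Bnip3 at -0.28 ± 0.33 (SE) and Adm at 0.26 ± 0.29. No member's groups were without overlap, where 0.3% of all genes were higher and 0.273% lower without overlap. Within L5, with 3 and 5 libraries, the median was -0.16, again with 3 higher and 7 lower. After anti-CD40, 6 were higher and 4 lower, with a median of 0.07 (all genes -0.01). Vegfa was at -0.55 ± 0.38 and Ldha at 0.34 ± 0.22, the 2 farthest apart. Again the groups of every member overlapped, where 0.693% of all genes were higher and 1.04% lower without overlap. After the combination, 6 were higher and 4 lower, with a median of 0.03 (all genes 0.00), and Car9 was at 0.40 ± 0.47 and Bnip3 at 0.21 ± 0.36. Both differed in sign without WT IgG replicate 1, at -0.06 and -0.08. The groups of every member overlapped, where 0.54% of all genes were higher and 0.92% lower without overlap. Adjusted p-values in these 3 comparisons were 0.62 or above for every member by limma.

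In HET hosts, the median of the members was positive after anti-PD1 and negative after the combination. After anti-PD1, 9 of 10 were higher than in HET IgG, by a median of 0.24 (all genes 0.01), with Vegfa at 0.50 ± 0.40 (SE) and Car9 at 0.46 ± 0.49. Car9 was the 1 member whose groups did not overlap, where 0.953% of all genes were higher and 1.03% lower without overlap. The median was 0.11 without HET IgG replicate 4 and 0.44 without HET IgG replicate 2. Within L7, with 3 and 2 libraries, it was -0.12, with 4 higher and 6 lower.

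After anti-CD40 in HET hosts, 5 members were higher and 5 lower than in HET IgG, with a median of 0.01 (all genes -0.01). Adm was lower by the most, at -0.82 ± 0.31 (SE, limma adjusted p = 0.26), and Vegfa was at -0.34 ± 0.37. Even for Adm the groups overlapped, as for the other 9 members, where 3.23% of all genes were higher and 1.88% lower without overlap. Adm was at -0.45 without HET anti-CD40 replicate 1, the tumor with the lowest Adm. Markers of other tissues differed in this comparison as well: 20 of 20 muscle, 20 of 20 keratinocyte, 8 of 8 adipocyte and 9 of 9 macrophage genes were higher than in HET IgG, and 13 of 13 mitochondrially encoded genes lower. List means ranged from 1.33 to 4.78 against -1.06 to 4.20 for muscle, -2.04 to 5.44 against -2.49 to -0.28 for keratinocytes, -0.70 to 2.78 against -1.68 to -0.97 for adipocytes and 5.58 to 6.87 against 4.6 to 5.29 for macrophages. With the keratinocyte and muscle means as covariates Adm was at -0.80 and Vegfa at 0.32. Within L7, with 3 and 2 libraries, all 10 members were lower, by a median of -0.46, and 1 of the 2 IgG libraries there is replicate 2.

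After the combination in HET hosts, 9 of 10 members were lower than in HET IgG, by a median of -0.33 (all genes 0.00). Adm differed by -1.06 ± 0.31 (SE, limma adjusted p = 0.30), about 28.6 ± 5.04 against 63.4 ± 28.5 CPM (SD, n = 4 each). It was the 1 member whose groups did not overlap, where 1.4% of all genes were lower and 3.63% higher without overlap. Its difference stayed between -1.27 and -0.75 over the 39 alternatives tried, with adjusted p from 0.076 to 1.0. Vegfa was at -0.66 ± 0.37. The other members ran from -0.40 (Slc2a1) to 0.02 (Pgk1). The median rests on 1 library: without HET IgG replicate 2 it was -0.05. HET IgG replicate 4, the 1 IgG library that shares L8 with the combination, had a member mean of 8.27, inside the range of the combination (8.09 to 8.56).

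Between genotypes, the median of the members lay farthest from 0 under the combination, without a test of that order. HET IgG tumors had 3 members higher and 7 lower than WT IgG tumors (median -0.13, all genes 0.00), with Ankrd37 at -0.46 ± 0.29 (SE) and Adm at 0.45 ± 0.29. The median was -0.29 without HET IgG replicate 2 and -0.01 without WT IgG replicate 5, and Adm was at 0.18 without HET IgG replicate 2. The groups overlapped for all 10, where 0.153% of all genes were higher and 0.267% lower without overlap. Under anti-PD1, 8 were higher and 2 lower (median 0.19, all genes 0.02), with Bnip3 at 0.53 ± 0.37 and Adm at 0.31 ± 0.34. Eno1 was the 1 member whose groups did not overlap there, at 0.20 ± 0.23, where 2.92% of all genes were higher and 2.12% lower without overlap. Under anti-CD40, 10 of 10 were lower (median -0.16, all genes -0.02), with Adm at -0.58 ± 0.34 and Ankrd37 at -0.39 ± 0.34, and the groups of each overlapped, where 2.36% of all genes were higher and 1.54% lower without overlap. Without HET anti-CD40 replicate 1 the median was 0.00 and Adm was at -0.21, and with the keratinocyte and muscle means as covariates Adm was at -0.06 and the median at 0.08. Fitted with L number as a covariate, the median of the members was -0.70 under IgG, -0.55 under anti-PD1, -0.57 under anti-CD40 and -0.76 under the combination, values that rest on the few groups that span L numbers.

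Under the combination, all 10 members were lower in HET than in WT tumors, by a median of -0.63 (all genes 0.00). The 6 members that are not enzymes differed more than the enzymes, without a test of that contrast. Vegfa was at -1.0 ± 0.40 (SE, limma adjusted p = 0.77), Car9 at -0.88 ± 0.49, Adm at -0.74 ± 0.34 (adjusted p = 0.82), Bnip3 at -0.72, Ankrd37 at -0.66 and Slc2a1 at -0.60. The 4 enzymes were at -0.19 (Aldoa), -0.15 (Eno1), -0.13 (Pgk1) and -0.06 (Ldha). Adm and Vegfa were the 2 members whose groups did not overlap, where 5.69% of all genes were lower and 6.76% higher without overlap. The 4 HET tumors had a mean of the 10 genes from 8.09 to 8.56 and the 3 WT tumors from 8.46 to 9.15. Leaving out each library in turn gave medians from -0.81 to -0.49.

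The response to each treatment was also set against genotype, as the HET difference from IgG minus the WT difference. For anti-PD1 the median over members was 0.29 (9 higher, 1 lower; all genes 0.03), with Bnip3 at 0.71 ± 0.50 (SE) and Slc2a1 at 0.41 ± 0.43. For anti-CD40 it was -0.04 (4 higher, 6 lower; all genes -0.01), with Adm at -1.03 ± 0.45 (limma adjusted p = 1.0) and Car9 at 0.26 ± 0.65. For the combination it was -0.34 (1 higher, 9 lower; all genes 0.01), with Adm at -1.18 ± 0.45 (limma adjusted p = 0.99) and Vegfa at -0.72 ± 0.53. That median rests on 1 library, since it was -0.06 without HET IgG replicate 2. It was 0.05 with L number as a covariate and 0.02 with library weights, and Vegfa was at 0.07 with the keratinocyte and muscle covariates. None of these differences between genotypes passed adjustment.

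Markers of other tissues moved with the HET combination tumors. Against the WT combination, 20 of 20 skeletal muscle genes were higher, and the list mean was 2.18 to 4.09 in HET against -1.13 to 1.28 in WT. All 8 adipocyte genes were higher (-0.24 to 4.00 against -2.46 to -0.88), as were all 9 macrophage genes (5.41 to 6.84 against 4.05 to 5.24). All 20 keratinocyte genes were higher (-1.85 to 4.18 against -2.30 to -2.14), and in the WT combination 7 of them had no read at all (Krt15, Krt1, Lor, Ivl, Flg, Dsg1a and Dsc3). Of the 11 melanocyte genes 5 were higher and 6 lower, with list means of 9.82 ± 0.16 in HET (SD, n = 4) and 9.84 ± 0.14 in WT (n = 3). With the keratinocyte and muscle means as covariates, the Vegfa difference was -0.23 instead of -1.0 and the median of the members -0.26, with 10 of 10 still below 0. For the HET combination against HET IgG the same covariates left Adm at -1.10 and Vegfa at -0.01. In that comparison too, 20 of 20 muscle, 20 of 20 keratinocyte and 8 of 8 adipocyte genes were higher, and 12 of 13 mitochondrially encoded genes lower. The part of other tissue in the differences of the members was not tested beyond this.

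The 10 genes varied together from tumor to tumor, more plainly than they followed the groups. Of the 45 pairs, 32 had a Pearson r of 0.5 or more over the 30 tumors, against 13.4% of the 112522501 pairs of all genes tested. The median r of the pairs was 0.64, and 0.66 within groups, where the median over all gene pairs was 0.00. Each gene also followed the mean of the other 9, from r = 0.49 (rho = 0.53) for Ldha to r = 0.91 (rho = 0.88) for Slc2a1. Bnip3 (r = 0.89) and Ankrd37 (r = 0.86) came next after Slc2a1. All genes were measured in the same 30 libraries, so differences between libraries in depth and tissue content enter every correlation. Their part was not tested.

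**Figure D3:**
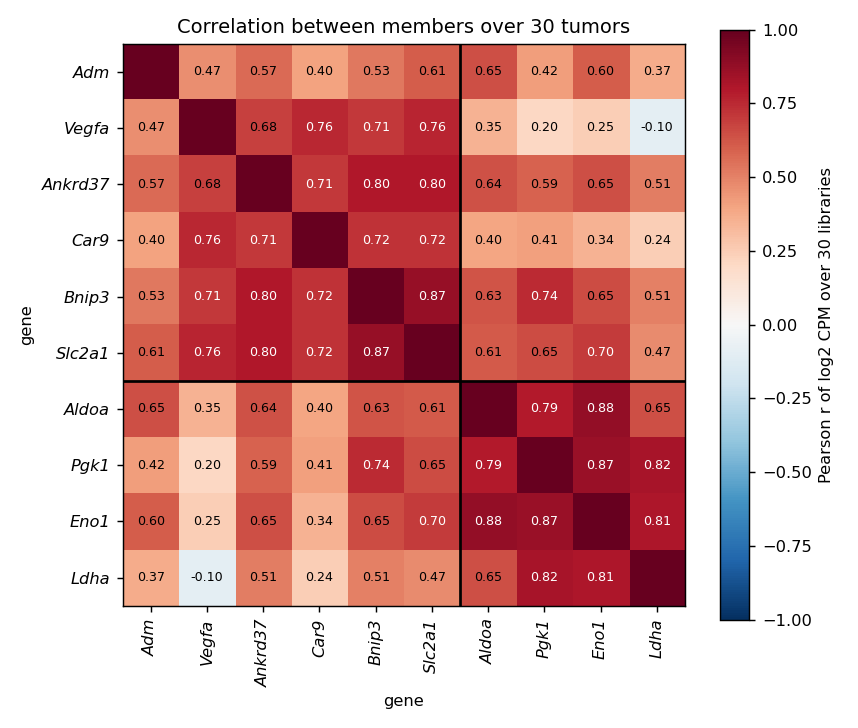
Pearson r between each pair of the 10 genes over the 30 tumors (log2 CPM), with genes on both axes, colour for r and black lines between the 6 non-enzymes and the 4 enzymes. The enzymes correlate with each other at 0.65 to 0.88, and Vegfa and Ldha at -0.10.

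The pairs fell into a pattern by role, which was seen in these correlations and is described without a test. The 6 pairs of enzymes had r from 0.65 to 0.88 (median 0.82). The 15 pairs of the other members had r from 0.40 to 0.87 (median 0.71). The 24 mixed pairs ran from -0.10 to 0.74 (median 0.51). Within groups these medians were 0.87, 0.72 and 0.63, in the same order but with the mixed pairs nearer to the others. Aldoa and Eno1 had the highest r over all 30 tumors (r = 0.88, rho = 0.79, adjusted permutation p = 3.7e-05 over the 45 pairs), and r was 0.83 without the 2 tumors farthest from the median and 0.63 to 0.99 within the 4 L numbers. Without HET IgG replicate 2 it was 0.78. Bnip3 and Slc2a1 had the highest rho of the 45 pairs (r = 0.87, rho = 0.90, adjusted permutation p = 3.7e-05), with r = 0.87 without HET IgG replicate 2 and r from 0.85 to 0.98 within the 4 L numbers. Pgk1 and Eno1 were as close (r = 0.87, rho = 0.88, adjusted permutation p = 3.7e-05), with r = 0.85 without HET IgG replicate 2. Vegfa and Ldha were unrelated by this measure (r = -0.10, rho = -0.01, permutation p = 0.60), and within L numbers r ran from -0.30 to 0.20. Adm and Ldha had r = 0.37 (adjusted permutation p = 0.050) but rho = 0.28 (adjusted permutation p = 0.15), and r was 0.20 without the 2 farthest tumors, so the relation across all 30 tumors depends on them. Within groups the same pair had r = 0.65 (adjusted permutation p = 0.0054), and r was -0.23, 0.70, 0.51 and 0.72 within L5, L6, L7 and L8. Vegfa also had low r with Pgk1 (0.20) and Eno1 (0.25).

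Most other genes of glycolysis followed the same tumors. Their list, like the members, was chosen with earlier results of these data known. Of 19 further glycolysis genes, 15 had r of 0.5 or more with the mean of the 10, where 4.76% of the 14992 genes that are not members did. The mean of these 19 genes had r = 0.90 (rho = 0.90, n = 30) with the mean of the 10, and 0.90 within groups. Gpi1, the isomerase of the second step, had r = 0.91, Gapdh 0.85, Pkm (pyruvate kinase) 0.81 and Tpi1 0.71. Not all did so: Slc16a1 had r = -0.37, Pfkfb4 -0.07, Ldhb 0.17 and Pfkfb3 0.40, named here after their values were seen. Of 16 further HIF targets tested, 10 reached 0.5. Among the most abundant of these, Ero1l, an oxidase of protein folding, had r = 0.77, the transcription factor Bhlhe40 0.69, the histone demethylase Kdm3a 0.50 and the cytokine Mif 0.43. Lox, a lysyl oxidase of the matrix and a known HIF target, named here after its values were seen, went the other way at r = -0.45.

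Regulators of the pathway divided. Of 9 tested, 3 reached 0.5. Egln1, the prolyl hydroxylase and itself a HIF target, had r = 0.89 and Cited2, which competes with HIF for a coactivator, had r = 0.65. Hif1a, whose protein is controlled mainly by its stability, had r = 0.08 at the RNA level, and Arnt had r = 0.24. None of the 7 receptor genes for Vegfa and Adm reached 0.5: Flt1 had r = 0.12, Nrp2 -0.07, Kdr -0.27 and Nrp1 -0.30.

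**Figure D4:**
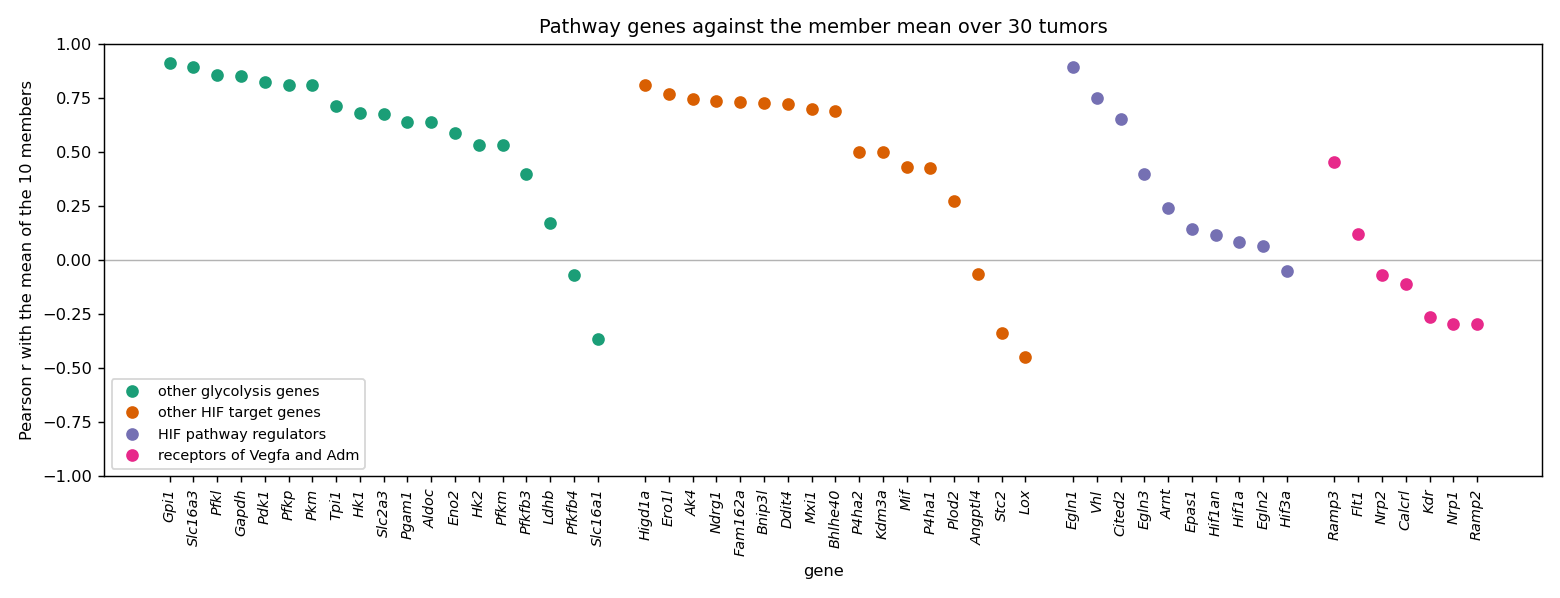
Pearson r of each further pathway gene with the mean of the 10 members over 30 tumors (vertical axis), by gene (horizontal axis) and coloured by list. Most glycolysis genes lie above 0.5, Egln1 at 0.89, Hif1a at 0.08 and Lox at -0.45.

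None of the further pathway genes was called in the 13 comparisons, and their directions matched those of the members in some comparisons only. In HET hosts after anti-PD1 or the combination, most further glycolysis genes and most HIF targets lay on the side of most members. So they did between genotypes under the combination. The further glycolysis genes followed the members over these tumors (r = 0.90 for the means), so this is not separate support. Under anti-CD40, all 10 members were lower in HET than in WT tumors. There 11 of 19 further glycolysis genes (median -0.07) and 11 of 16 HIF targets (median -0.16) were lower, while 7 of 7 receptors were higher. In WT hosts after anti-CD40, in contrast, 6 members were higher and 4 lower, while 6 further glycolysis genes were higher and 13 lower (median -0.11). After anti-PD1 in WT hosts 7 of 10 members were lower but 10 of 16 HIF targets higher, and in HET against WT tumors under anti-PD1, 8 members were higher and 2 lower while the targets divided into 8 and 8. Under the combination, HET tumors had 16 of 19 further glycolysis genes lower than WT tumors (median -0.31), 14 of 16 HIF targets (median -0.46) and 8 of 9 regulators (median -0.30), while receptors had 4 higher and 3 lower (median 0.06). Ero1l was at -0.90 ± 0.48 (SE), Bhlhe40 at -0.63 ± 0.25, Egln1 at -0.55 ± 0.31 and Gpi1 at -0.41 ± 0.29, with limma adjusted p of 0.77 or above. In HET hosts after the combination, 17 of 19 further glycolysis genes were lower than in HET IgG (median -0.29), 13 of 16 HIF targets (median -0.19) and 7 of 9 regulators (median -0.27). Bhlhe40 differed by -0.62 ± 0.24 and Egln1 by -0.48 ± 0.29. After anti-PD1 in HET hosts, 16 of 19 glycolysis genes, 12 of 16 targets and 7 of 9 regulators were higher (medians 0.15, 0.25 and 0.21).

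Tumors with higher levels of the 10 genes had lower levels of some marker lists, among them muscle, fat and dividing cells. The mean of the 10 had r = -0.50 (rho = -0.38) with the mean of 20 skeletal muscle genes, -0.52 (rho = -0.45) with 8 adipocyte genes and -0.50 (rho = -0.40) with 14 proliferation genes. Within groups these were -0.36, -0.38 and -0.52. For T cell genes r was -0.45 and for macrophage genes -0.44, and within groups -0.32 and -0.25. Melanocyte (r = -0.01), endothelial (-0.05) and keratinocyte genes (-0.18) showed little relation with this mean over all 30 tumors. Red blood cell genes went the other way (r = 0.32, rho = 0.36). Without the 2 farthest tumors, melanocyte genes had r = -0.27 with the mean of the 10. With the enzyme mean they had r = 0.01, and -0.59 without the 2 farthest. For muscle and proliferation the non-enzymes had the lower values: their mean had r = -0.57 and -0.54, and the enzyme mean -0.18 and -0.23. Keratinocyte genes had r of opposite sign by role, -0.34 (rho = -0.35) for the non-enzyme mean and 0.29 (rho = 0.35) for the enzyme mean. Within groups these r were -0.15 and 0.35, and without the 2 farthest tumors -0.42 and 0.13.

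**Figure D5:**
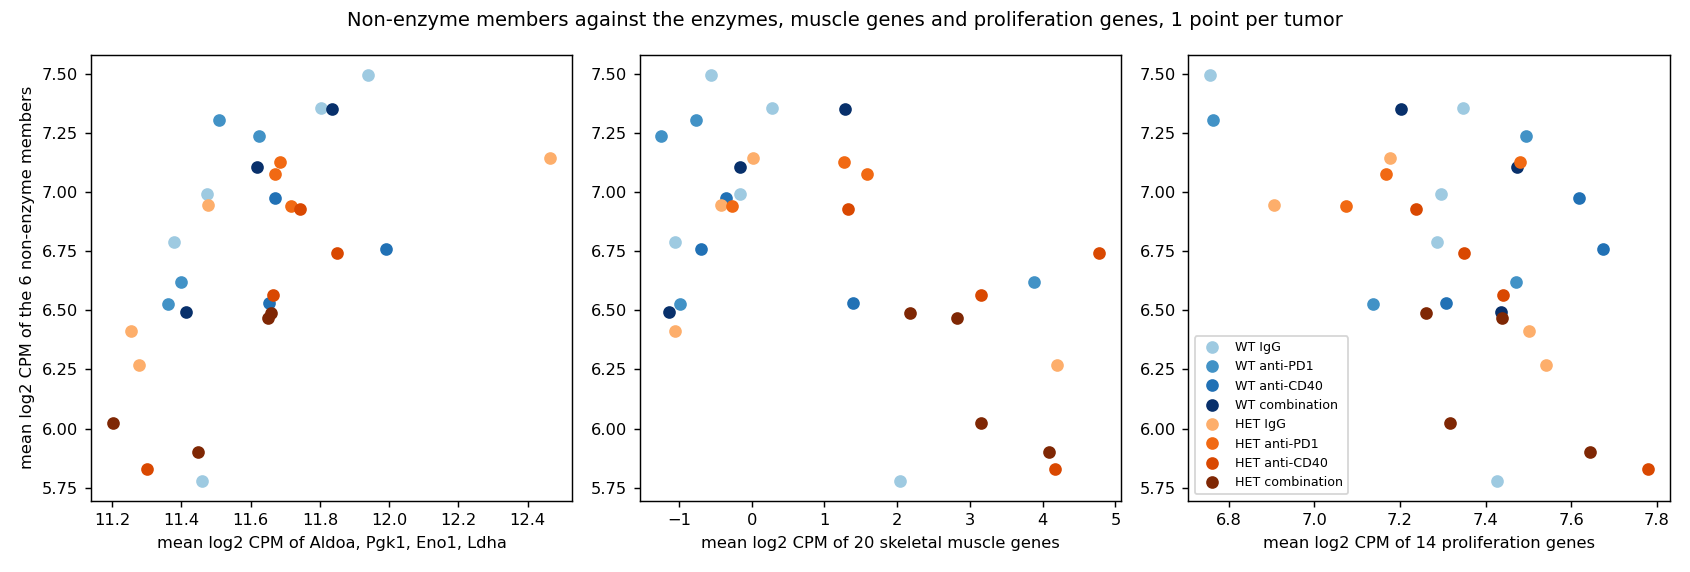
Mean log2 CPM of the 6 non-enzyme members (vertical axis) against the mean of the 4 enzymes, of 20 skeletal muscle genes and of 14 proliferation genes (horizontal axes, log2 CPM), 1 point per tumor, coloured by group. HET IgG replicate 2 is the point far right in the first panel, with an enzyme mean of 12.47.

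The 10 other genes most like the mean of the members over the 30 tumors were Pygl (r = 0.92), Ndrg2 (0.92), Gpi1 (0.91), Espn (0.89), Slc16a3 (0.89), Egln1 (0.89), Smtnl2 (0.89), Selenbp1 (0.86), Pkp2 (0.86) and Grhpr (0.86). Their r within groups lay between 0.85 and 0.97. Pygl encodes glycogen phosphorylase of the liver type and Slc16a3 the lactate exporter MCT4. Gpi1, Slc16a3 and Egln1 are also on the pathway lists above, and the other 7 are on none of them.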

How the data were processed

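RNA of the tumors was sequenced. The submitters' processing notes name STAR, edgeR and the mm10 build. Versions, the annotation, strandedness and filters are not given in the sources used here. The deposited values are log2 CPM made by the authors, with a prior count of 2 recovered from the values; 100% of values gave whole reads within 0.01, from 17.6 M to 36.0 M reads per library (median 24.9 M). Genes above a log2 value of 0 in 3 or more libraries were tested. Limma 3.58.1 (moderated test, intensity trend, R 4.3.3) fitted 1 mean per group to all 30 libraries. It gave 13 comparisons: 6 of a treatment against IgG, 4 of HET against WT and 3 of genotype by treatment. Calls needed an adjusted p under 0.05 (Benjamini-Hochberg over 15002 genes). Coordinates and exon lengths are from GENCODE vM21, matched by gene ID without its version. The fit was tested on simulated data. Correlations between members used 100000 permutations, two-sided. Replicate numbers were checked and do not pair the samples. Members and gene lists were chosen with earlier results of these data known. In each comparison the 2 members with the largest difference, and any called, are named with their error. From each further list the 4 genes with the highest mean and any called are named. Other listed genes are marked as such where they are named.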

Additional observations from a re-analysis of the deposited data

Results flagged for a closer look

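In 50 groups of 4 or 5 libraries (10 genes in 5 groups), 4 held 1 library far from the others by Dixon's test, where chance gives about 1 in 20. HET anti-CD40 replicate 1 stood at 3.95 for Adm, with the nearest tumor of its group at 5.39. HET IgG replicate 1 stood at 6.65 for Car9, with the nearest at 7.33. HET IgG replicate 2, the library high in mitochondrial reads, stood at 12.01 for Ldha, with the nearest at 11.15. WT anti-PD1 replicate 4, the 1 library of its group outside L5, stood at 11.44 for Pgk1, with the nearest at 11.20.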

How the results depend on the processing

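In each of the 39 alternatives, 0 of 130 tests of members (10 genes in 13 comparisons) were called, and the lowest adjusted p by limma was 0.068, with library weights. The named members differed in sign from the reported value in 10 recomputed values, and the medians of the members in 32 of 507. Fitted with L number as a covariate, the median of the members was -0.29 for WT anti-CD40 against IgG, -0.70, -0.55 and -0.57 for HET against WT under IgG, anti-PD1 and anti-CD40, and 0.0468 for the genotype difference in the response to the combination. Under it Bnip3 was at -0.69 (WT combination against IgG) and -0.50 (HET against WT, anti-PD1), and Adm at -0.11 and -0.39 (HET against WT, IgG and anti-PD1). With the keratinocyte and muscle means as covariates Vegfa was at 0.32 (HET anti-CD40 against IgG) and 0.0742 (genotype difference, combination), Ankrd37 at 0.0254 (HET against WT, anti-CD40) and the median of HET against WT under the combination -0.26. Library weights, whose estimation did not reach its convergence tolerance, called 50, 60 and 407 genes for anti-PD1, anti-CD40 and the combination in HET and 23 for HET against WT under the combination, and gave a median of 0.0239 for the genotype difference in the combination response. For these shifts the cause was not tested.

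With the replicate number as a replicate block, Car9 in the genotype difference for anti-CD40 was at -0.0740, and no call changed. Leaving out 1 library at a time called 0 to 1 genes for HET anti-CD40 and HET anti-PD1 and 0 to 6 for the HET combination (6 without HET IgG replicate 4). Car9 and Bnip3 in the WT combination ranged from -0.0582 to 1.0 and from -0.0805 to 0.39. The medians of HET anti-CD40 against IgG (-0.16 to 0.21), HET against WT under anti-CD40 (-0.25 to 0.0046), WT anti-PD1 (-0.21 to 0.02), WT anti-CD40 (-0.11 to 0.17), WT combination (-0.10 to 0.15) and the genotype difference for anti-CD40 (-0.14 to 0.16) crossed 0 in this way. Each member had at least 143 reads in every library, and groups held 3 to 5 tumors.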
